A study of Mus musculus with 9 samples.

Results

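Imprinted genes are expressed mainly from 1 parental allele, and 39 such mouse genes were followed through a knockdown of Myt1 and a knockdown of the gene of LSD1 in Neuro2a cells. A gene was represented by the probe set that carried its symbol alone and had the highest mean over the 9 arrays. Of the 39 listed genes, 37 were measured in this way, out of 18193 genes in all. Dio3 and H19 had no probe set naming them alone. The 37 comprised 17 of the 18 listed genes known to be expressed from the paternal allele and 16 of the 17 known to be expressed from the maternal allele. The other 4, Gnas, Grb10, Blcap and Inpp5f, use a parental allele that depends on the transcript or tissue and were kept apart. Several genes of the maternal class are imprinted only in placenta or brain, or are only biased towards that allele, and were kept in the class. These assignments are textbook background: an array probe does not tell the parental alleles apart, so levels were measured and allelic usage was not.

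Neuro2a is a mouse neuroblastoma cell line, a tumour-derived relative of sympathetic neurons. All cells had received an siRNA for 48 h: siMyT1 targeted Myt1, which encodes a neural zinc finger transcription factor, siLSD1 targeted Kdm1a, which encodes the histone demethylase LSD1, and siControl served as the control. Each group held 3 one-colour arrays of total RNA. The labels give no second siRNA per target and do not say whether replicates were separate cultures, so each p-value reflects only how these arrays spread, and that spread may be technical. The series title presents Myt1 as a component of the LSD1 complex found in neural cells.

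In the germ line, imprinting control regions acquire DNA methylation on 1 parental allele, and after fertilisation the zinc finger protein ZFP57 and its cofactor TRIM28 keep that methylation in place by binding a short motif that contains TGCCGC. Imprinted genes lie in clusters where protein-coding genes and noncoding RNAs of opposite parental origin are neighbours, and many act in growth, placental function and the nervous system. A whole-cell RNA level sums both alleles, and in bulk cells fewer expressing cells and less RNA per cell cannot be told apart.

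Start-site sequences of Nap1l5, Zdbf2 and Mest are shown because they hold the hexamer recognised by ZFP57, and that of Peg3 and Usp29 because the pair shares it. They were picked with their hexamers known. The windows of Blcap, Ppp1r9a, Tssc4, Inpp5f, Igf2r and Phlda2, whose levels also differed, hold none, nor do the second Zdbf2 and first Mest windows. No start window was found for Sgce, whose level differed too, so it was not searched. Calcr, Copg2, Zim1, Plagl1 and Meg3 also have a window with the hexamer, and their levels passed the test used below in no comparison. A link between hexamer and level was not tested. The first 3 are RefSeq windows of the 250 bases before an annotated start, build GRCm38.p6, 5′ to 3′ on the gene's strand, with TGCCGC or its reverse complement GCGGCA in capitals. The window of Nap1l5 is chr6:58907127-58907376 on the minus strand and holds 1 such hexamer and 10 CpG.
Nap1l5: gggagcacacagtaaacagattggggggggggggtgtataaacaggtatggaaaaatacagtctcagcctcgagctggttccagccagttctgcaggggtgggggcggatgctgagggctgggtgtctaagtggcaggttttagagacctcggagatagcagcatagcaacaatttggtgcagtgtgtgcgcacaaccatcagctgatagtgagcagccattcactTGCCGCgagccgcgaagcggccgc
The first Zdbf2 window is chr1:63200108-63200357 on the plus strand and holds 3 hexamers and 13 CpG.
Zdbf2: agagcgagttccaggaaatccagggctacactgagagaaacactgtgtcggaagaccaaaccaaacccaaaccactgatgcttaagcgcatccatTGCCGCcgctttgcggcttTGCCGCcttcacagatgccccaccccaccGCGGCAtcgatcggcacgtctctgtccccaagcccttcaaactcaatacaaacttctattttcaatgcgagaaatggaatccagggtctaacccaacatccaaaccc
The second Mest window is chr6:30737800-30738049 on the plus strand and holds 2 hexamers and 14 CpG.
Mest: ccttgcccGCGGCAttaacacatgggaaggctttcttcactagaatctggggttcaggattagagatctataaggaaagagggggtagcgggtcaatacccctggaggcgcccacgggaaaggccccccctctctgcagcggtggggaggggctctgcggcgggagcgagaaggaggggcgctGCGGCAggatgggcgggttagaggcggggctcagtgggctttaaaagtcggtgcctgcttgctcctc
Peg3 and Usp29 start on opposite strands with 96 bases between them, chr7:6730463-6730558, written on the plus strand, with no hexamer and 3 CpG.
Peg3-Usp29: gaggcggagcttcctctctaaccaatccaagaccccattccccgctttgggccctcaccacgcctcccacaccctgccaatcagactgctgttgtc

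RefSeq start windows were found for 32 of the 39 listed genes, 49 windows in all. Searched on both strands, TGCCGC occurred at least once in 9 of these 49 windows (18.4%), against 8.68% of all 32851 windows of the same length. It occurred at least 2 times in 3 member windows (6.12%), against 0.874% of all windows; these 3 were the first Zdbf2 window and a pair of Mest windows that start 3 bases apart and share nearly all of their sequence. The letters AAAGTT, the core of the Myt1 family's recognition sequence, occurred in 4 of the 49 member windows (8.16%) against 12.4% of all windows, and in none of the 4 stretches printed. The median was 12 CpG over the 49 member windows and 6 over all windows, and the hexamer itself contains a CpG; the part of CpG content in these shares was not tested. A match describes letters in a window and does not show that a protein binds there.

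The siRNA targets were low in their own groups. Myt1 had 4.90 ± 0.34 intensity units in siControl and 0.660 ± 0.21 in siMyT1, 13.5% of control. Kdm1a had 29.0 ± 1.0 in siControl and 4.49 ± 0.40 in siLSD1, 15.5% of control (SD, n = 3 throughout). In siLSD1, Myt1 had 6.95 ± 0.72, 142% of control, without overlap, and did not pass limma's test (adjusted p = 0.0643). The part of this Myt1 level in the results was not tested. In siMyT1, Kdm1a had 30.9 ± 1.6, 107% of control, and did not pass either (adjusted p = 0.546). All 9 measured markers of sympathetic neuroblastoma were above the pseudocount on every array, and their summed level was 170 to 183 in siControl, 130 to 139 in siMyT1 and 178 to 198 in siLSD1. By limma's test, defined below, 4 of these 9 were lower in siMyT1 than in siControl (Phox2a, Hand2, Chga and Chgb). Of all genes, 2.29% were lower and 5.12% higher in that comparison. Th, Dbh and Gata2 had lower means in siMyT1 and Gata3 and Isl1 higher ones, and none of these 5 markers passed limma's test. Bright probe sets weigh most in the sum. From siControl to siMyT1, Chgb went from 49.8 to 30.5 units and Hand2 from 51.7 to 37.6. In siLSD1, 3 of the 9 were higher (Phox2a, Gata2 and Th) and Hand2 was lower, where 3.97% of all genes were higher and 4.93% lower. Of 8 fibroblast markers, 3 were above the pseudocount on every array, Col1a1 was below it on every array and Dcn was higher in siMyT1; their sums were 4.0 to 5.45, 5.24 to 5.83 and 4.16 to 4.19. Of the 4 glial, 5 blood, 3 endothelial and 2 placental markers measured, 2, 1, 0 and 0 were above the pseudocount on every array. Their part in the results was not tested. The actin 3′ to 5′ signal ratio was 1.17 ± 0.017 in siControl, 1.11 ± 0.0049 in siMyT1 and 1.17 ± 0.054 in siLSD1.

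Levels are deposited intensities on a linear scale, and a level of one probe set is not compared with that of another. A gene is called higher or lower where limma's two-sided test, adjusted over all 18193 genes, gave p under 0.05. Differences are on the log2(value + 0.196) scale, 0.196 units being the pseudocount, with the standard error (SE); this scale understates the change of dim genes. Of the 37 genes, 23 were above 0.196 units on all 9 arrays, 10 of 17 paternally and 10 of 16 maternally expressed genes and 3 of the other 4. Kcnq1, Asb4 and Calcr were above it on no array.

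With Myt1 knocked down, 7 imprinted genes fell and 1 rose. Of all genes, 2.29% were lower and 5.12% higher in siMyT1 than in siControl, 7.41% in either direction. Those that fell were the paternally expressed Nap1l5, Zdbf2, Usp29 and Peg3, the maternally expressed Ppp1r9a and Tssc4, and Blcap; the paternally expressed Mest rose. Thus 4 of 17 paternally and 2 of 16 maternally expressed genes were lower, and no test compared these classes. At an unadjusted p under 0.05, 7 of the 17 and 4 of the 16 differed, and the share of all genes at that threshold was not determined. The median difference was -0.14 over the paternally and 0.02 over the maternally expressed genes, against 0.05 over all genes. Under median centring these were -0.24, -0.08 and -0.06, so the signs of the maternal median and of the median over all genes turned. The summed sympathetic marker level was lower in the same group, as given above, and its part in these differences was not tested.

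With LSD1 knocked down, 2 imprinted genes rose, Nap1l5 and Mest, and 1 fell, Blcap, where 3.97% of all genes were higher and 4.93% lower, 8.9% in either direction. Both that rose are paternally expressed. No maternally expressed gene passed limma's test. At an unadjusted p under 0.05, 7 of 17 paternally and 3 of 16 maternally expressed genes differed. The share of all genes at that threshold was not determined, and no test compared the classes. The median difference was -0.07 over the paternally and -0.09 over the maternally expressed genes, against -0.03 over all genes. Under median centring these were -0.004, -0.02 and 0.03, so the sign of the median over all genes turned. The knockdowns share the 3 siControl arrays, and each has its own values for the 3 genes called in both: Nap1l5 fell and rose, Mest rose in both and Blcap fell in both.

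**Figure D1:**
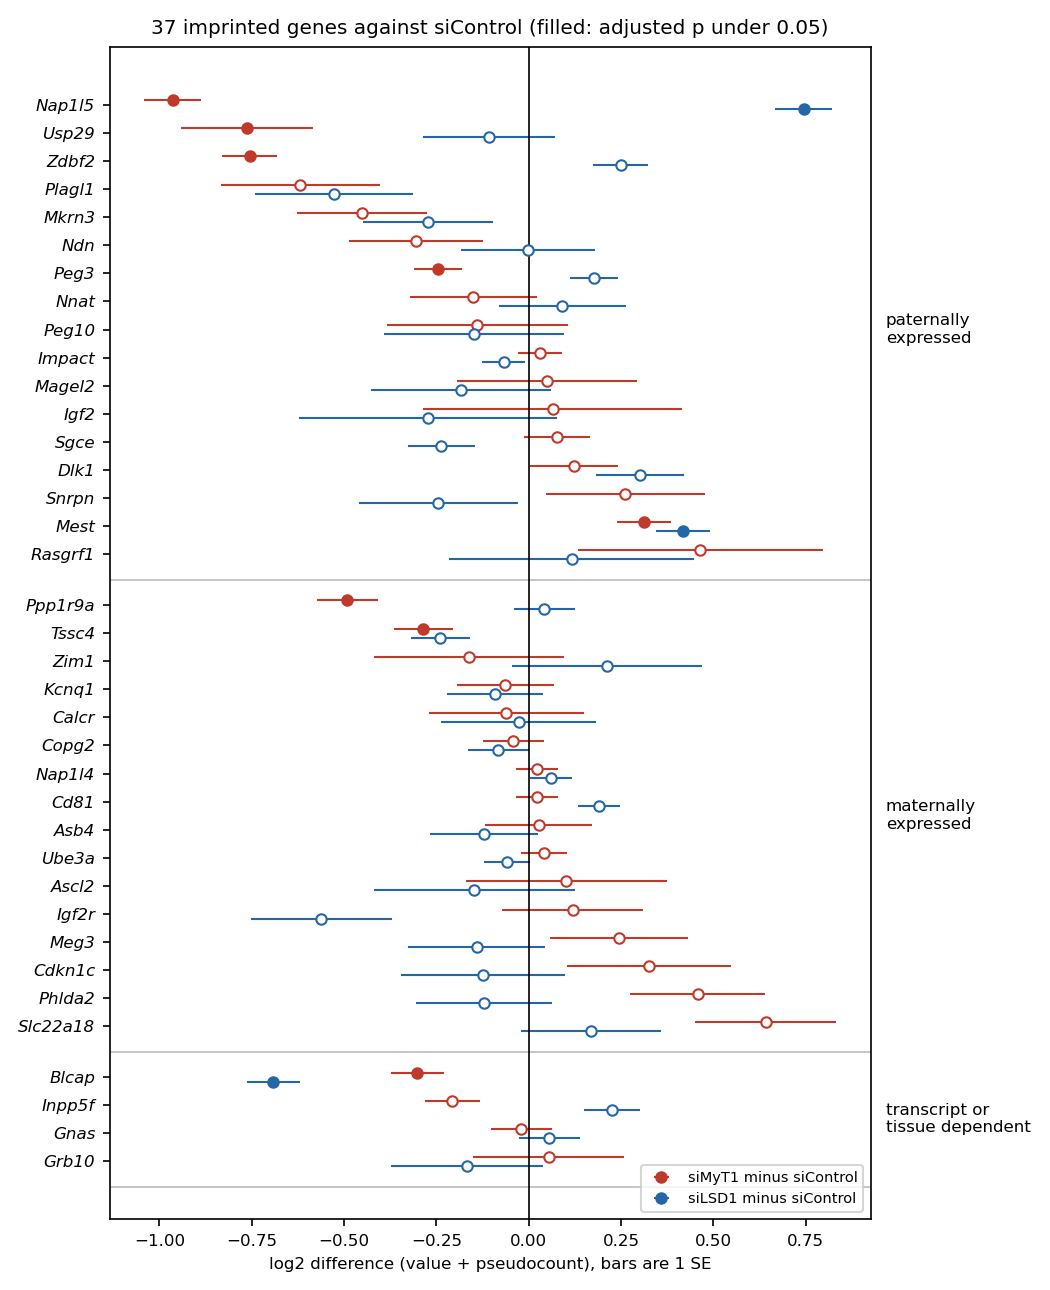
Each row is 1 of the 37 imprinted genes, with its log2 difference from siControl in siMyT1 and siLSD1 and a bar of 1 SE; filled points have an adjusted p under 0.05, and rows are grouped by the parental allele expressed. Nap1l5 lies at -0.96 in siMyT1 and 0.74 in siLSD1, the farthest apart of the rows.

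Nap1l5 belongs to the nucleosome assembly protein family of histone chaperones. Its siControl arrays read 5.46, 6.04 and 5.84 units, its siMyT1 arrays 2.66, 2.85 and 3.10, and its siLSD1 arrays 10.2, 9.45 and 9.79. The 3 groups did not overlap. The siMyT1 mean was 49.7% of control, a log2 difference of -0.96 (SE 0.08, adjusted p = 2.09e-05). The siLSD1 mean was 170% of control, a difference of 0.74 (SE 0.08, adjusted p = 4.96e-05). Compared directly, siMyT1 was 1.71 below siLSD1 on the log2 scale (adjusted p = 5.50e-08), at 29.3% of its level. All 3 calls held in each of the 20 alternative settings. Nap1l5 lies inside Herc3, a ubiquitin ligase gene, whose level did not pass the test: it was 3.20 ± 0.097 in siControl, 2.88 ± 0.35 in siMyT1 and 2.81 ± 0.19 in siLSD1 (-0.15, adjusted p = 0.469; -0.18, adjusted p = 0.364). Its family member Nap1l4, in the Kcnq1 cluster, read 16.6 ± 0.52, 16.8 ± 0.38 and 17.3 ± 0.82 units, with no passing difference.

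Zdbf2 encodes a zinc finger protein. It had 7.87, 8.28 and 8.81 units on the siControl arrays, 5.01, 4.60 and 4.93 on the siMyT1 arrays and 10.5, 10.2 and 9.09 on the siLSD1 arrays. All siMyT1 arrays lay below the others, and all siLSD1 arrays lay above siControl. In siMyT1 it fell to 58.3% of control (-0.76, SE 0.07, adjusted p = 7.48e-05), a call kept in all 20 alternatives. The siLSD1 difference of 0.25 (SE 0.07) did not pass (adjusted p = 0.0570). The direct difference was -1.0 (adjusted p = 2.88e-06).

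Peg3, a zinc finger protein, and Usp29, a ubiquitin-specific protease family member, are the divergent pair above. Peg3 had 27.7, 26.5 and 26.0 units in siControl, 21.5, 21.9 and 24.2 in siMyT1 and 31.9, 30.3 and 28.6 in siLSD1, without overlap between the groups. It fell to 84.3% of control in siMyT1 (-0.25, SE 0.06, adjusted p = 0.0365) and did not pass in siLSD1 (0.18, adjusted p = 0.123). The direct difference was -0.42 (adjusted p = 0.000561). The siMyT1 call against control was lost on leaving out siControl replicate 1, 2 or 3, siMyT1 replicate 1 or 2, or siLSD1 replicate 3, with adjusted p up to 0.145. It was also lost when each probe set was tested on its own, with adjusted p = 0.0577, and in the mean over all 5 probe sets (-0.15, adjusted p = 0.421). Of the other 4 probe sets, 2 were bright. The first read 14.1 ± 0.51, 11.8 ± 1.4 and 14.2 ± 1.9 units in siControl, siMyT1 and siLSD1, and did not pass (-0.25, adjusted p = 0.206, in siMyT1). The second read 7.47 ± 0.79, 6.34 ± 0.21 and 9.91 ± 0.99, and was higher in siLSD1 (0.40, adjusted p = 0.0208) and lower in siMyT1 than in siLSD1 (-0.63, adjusted p = 0.000782).

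Usp29 had 0.919, 0.821 and 0.690 units in siControl, 0.360, 0.401 and 0.423 in siMyT1 and 0.737, 0.884 and 0.600 in siLSD1. The siMyT1 arrays were the lowest, while siLSD1 overlapped siControl. It fell to 48.7% of control in siMyT1 (-0.76, SE 0.18, adjusted p = 0.0217), and the direct difference was -0.66 (adjusted p = 0.0213). Without siControl replicate 1 or 2 or siMyT1 replicate 2 or 3 the first call was lost, with adjusted p up to 0.0966. Without siLSD1 replicate 1 or 2 the direct call was lost, with adjusted p up to 0.100. The other Usp29 probe set was dim, above the pseudocount on 2 arrays. It read 0.117 ± 0.078, 0.0352 ± 0.0036 and 0.207 ± 0.095 units in siControl, siMyT1 and siLSD1. By limma it did not pass against control (-0.40, adjusted p = 0.373, in siMyT1 and 0.37, adjusted p = 0.394, in siLSD1). It was lower in siMyT1 than in siLSD1 (-0.78, adjusted p = 0.0286). The other member of this cluster, the maternally expressed zinc finger gene Zim1, was above the pseudocount on 1 array only.

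Mest encodes a protein with the fold of a hydrolase. It had 72.7, 78.1 and 70.3 units in siControl, 93.8, 84.8 and 96.1 in siMyT1 and 102, 92.6 and 101 in siLSD1. Both knockdowns lay above control on every array and overlapped each other. It rose to 124% of control in siMyT1 (0.31, SE 0.07, adjusted p = 0.0220) and to 134% in siLSD1 (0.42, SE 0.07, adjusted p = 0.00273), and the direct difference did not pass (-0.10, adjusted p = 0.381). Leaving out siControl replicate 1 or 3, or siMyT1 replicate 1 or 3, ended the siMyT1 call, with adjusted p up to 0.0925. Median centring of the arrays also ended it, where the difference was 0.21 (adjusted p = 0.296). Its tail-to-tail neighbour Copg2, a subunit of the coat of transport vesicles whose gene overlaps Mest by 913 bases, had 10.3 ± 0.75, 10.0 ± 0.91 and 9.76 ± 0.73 units and did not pass (-0.04, adjusted p = 0.849, in siMyT1 and -0.08, adjusted p = 0.667, in siLSD1).

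Blcap encodes a small membrane protein, and Nnat, which encodes the brain proteolipid neuronatin, lies inside it. Blcap had 15.0, 17.3 and 14.7 units in siControl, 12.1, 12.5 and 13.3 in siMyT1 and 9.82, 9.14 and 9.85 in siLSD1. No groups overlapped, and siLSD1 was the lowest. It fell to 80.8% of control in siMyT1 (-0.30, SE 0.07, adjusted p = 0.0230) and to 61.3% in siLSD1 (-0.69, SE 0.07, adjusted p = 4.96e-05), and siMyT1 lay above siLSD1 (0.39, adjusted p = 0.00200). The siMyT1 call did not survive leaving out siControl replicate 1 or 2, or siMyT1 replicate 1 or 2, with adjusted p up to 0.0818. Nnat had 0.961 ± 0.15, 0.848 ± 0.16 and 1.03 ± 0.12 units, and neither knockdown passed (-0.15, adjusted p = 0.707; 0.09, adjusted p = 0.849).

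Ppp1r9a encodes neurabin, an actin-binding protein that targets protein phosphatase 1. It had 5.07, 4.31 and 5.06 units in siControl, 3.31, 3.40 and 3.37 in siMyT1 and 5.02, 5.14 and 4.70 in siLSD1. Only the siMyT1 arrays stood apart, below all others, at 69.8% of control (-0.49, SE 0.08, adjusted p = 0.00360). In siLSD1 the difference was 0.04 (adjusted p = 0.856), and the direct difference was -0.53 (adjusted p = 0.000662). A second bright probe set read 4.53 ± 0.18, 3.33 ± 0.10 and 4.94 ± 0.45 units and was also lower in siMyT1 than in siControl (-0.42, adjusted p = 0.0143) and siLSD1 (-0.54, adjusted p = 0.00115). Averaging all 5 probe sets, 3 of them dim, ended the call (-0.31, adjusted p = 0.248).

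Tssc4, in the Kcnq1 cluster, encodes a factor of spliceosome assembly. It had 7.09, 7.59 and 6.70 units in siControl, 5.44, 6.02 and 5.98 in siMyT1 and 6.32, 5.48 and 6.23 in siLSD1. Both knockdowns lay below control on every array and overlapped each other. Its fall to 81.5% of control in siMyT1 had the largest adjusted p of the calls (-0.29, SE 0.08, adjusted p = 0.0472), and siLSD1 did not pass (-0.24, adjusted p = 0.0874). The call was lost without any 1 of the siControl or siMyT1 arrays or siLSD1 replicate 1 or 3, with adjusted p up to 0.138, and in 6 further settings.

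**Figure D2:**
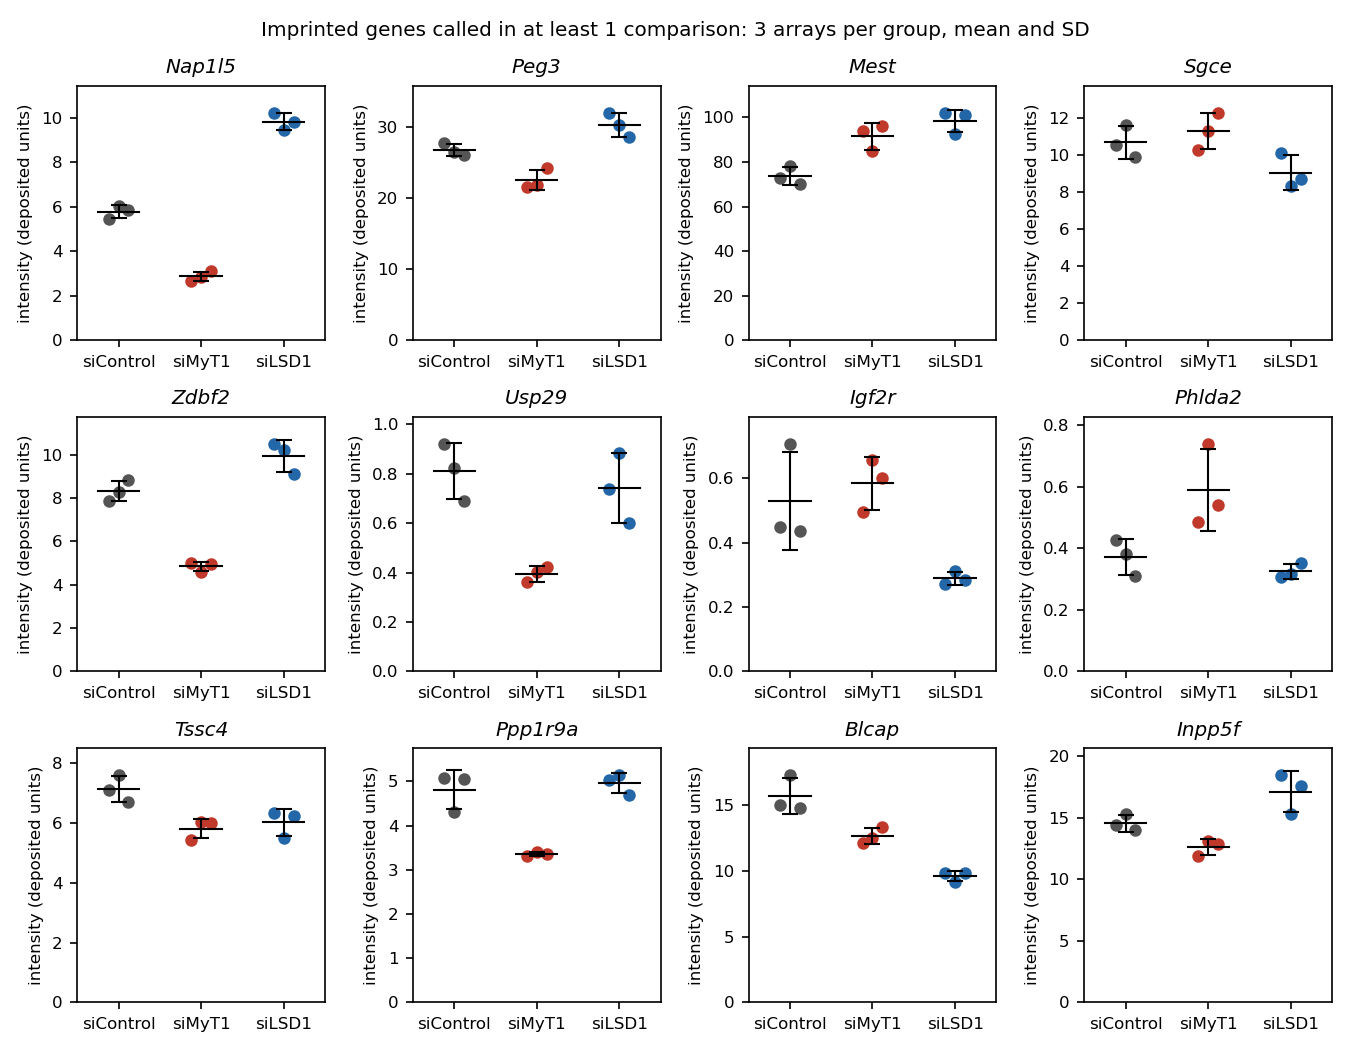
Each panel shows deposited intensity for 1 of the 12 imprinted genes called in any comparison, with the 3 arrays of each group as points and the mean ± SD. In the Nap1l5 panel the siMyT1 arrays lie between 2.66 and 3.10 units and the siLSD1 arrays between 9.45 and 10.2.

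The direct comparison of the knockdowns sets their means against each other, with the spread estimated over all 9 arrays, siControl included. It called 4 imprinted genes higher and 6 lower in siMyT1 than in siLSD1, where 13.2% of all genes were higher and 5.58% lower, 18.8% in either direction. Nap1l5, Zdbf2, Usp29, Peg3, Ppp1r9a and Inpp5f were lower, and Igf2r, Phlda2, Blcap and Sgce were higher. Of the paternally expressed genes 4 were lower and 1 higher, and of the maternally expressed genes 1 was lower and 2 higher. Inpp5f, Igf2r, Phlda2 and Sgce passed in neither comparison with control.

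Inpp5f encodes a phosphoinositide phosphatase. It had 14.4, 15.3 and 14.0 units in siControl, 11.9, 13.1 and 12.8 in siMyT1 and 18.4, 15.3 and 17.6 in siLSD1. The siMyT1 arrays were the lowest, and siLSD1 overlapped siControl. The direct difference was -0.43 (SE 0.08, adjusted p = 0.00139); against control the differences were -0.21 (adjusted p = 0.128) in siMyT1 and 0.23 (adjusted p = 0.0880) in siLSD1. A further probe set read 2.37 ± 0.26, 1.46 ± 0.29 and 2.53 ± 0.54 and was also lower in siMyT1 than in siLSD1 (-0.72, adjusted p = 0.0138). The remaining Inpp5f probe set had the opposite sign and did not pass, at 1.78 ± 0.22, 2.04 ± 0.37 and 1.61 ± 0.28 (0.31, adjusted p = 0.238).

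Igf2r encodes the receptor that carries the growth factor IGF2 to lysosomes for breakdown. It had 0.447, 0.706 and 0.437 units in siControl, 0.495, 0.657 and 0.602 in siMyT1 and 0.272, 0.312 and 0.285 in siLSD1. The siLSD1 arrays were the lowest, and siMyT1 overlapped siControl. The direct difference was 0.68 (SE 0.19, adjusted p = 0.0245), and the siLSD1 difference from control was -0.56 (adjusted p = 0.0950). The direct call was lost without siMyT1 replicate 2 or 3 or any 1 siLSD1 array, with adjusted p up to 0.0755. The other Igf2r probe set was not low in siLSD1: it read 0.268 ± 0.034, 0.410 ± 0.062 and 0.286 ± 0.041, with differences of 0.06 (adjusted p = 0.922) in siLSD1 against siControl and 0.33 (adjusted p = 0.244) in the direct comparison. Igf2 itself was dim, at 0.279 ± 0.15, 0.312 ± 0.19 and 0.206 ± 0.17 units, and passed no test.

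Phlda2, a growth-restraining gene of the placenta, had 0.427, 0.382 and 0.309 units in siControl, 0.485, 0.739 and 0.542 in siMyT1 and 0.308, 0.315 and 0.352 in siLSD1. The siMyT1 arrays were the highest, and siLSD1 overlapped siControl. The direct difference was 0.58 (SE 0.18, adjusted p = 0.0434), and it ended on leaving out siControl replicate 1 or 2, siMyT1 replicate 2 or 3 or any 1 siLSD1 array, with adjusted p up to 0.139, and under median centring (adjusted p = 0.0779). Both placental markers measured were below the pseudocount on every array.

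Sgce encodes a sarcoglycan, part of the complex that links the cytoskeleton to the matrix. It had 10.5, 11.6 and 9.88 units in siControl, 10.3, 11.3 and 12.2 in siMyT1 and 10.1, 8.30 and 8.72 in siLSD1. The 2 knockdowns did not overlap, while both overlapped siControl. The direct difference was 0.31 (SE 0.09, adjusted p = 0.0264). It was lost without siMyT1 replicate 2 or 3 or siLSD1 replicate 2 or 3, with adjusted p up to 0.118, and under median centring (0.14, adjusted p = 0.223). The call rests on an _a_at probe set and was lost without the _s_at, _x_at and _a_at ones (adjusted p = 0.603). The other Sgce probe set was above the pseudocount on no array and did not pass (0.20, adjusted p = 0.612).

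**Figure D3:**
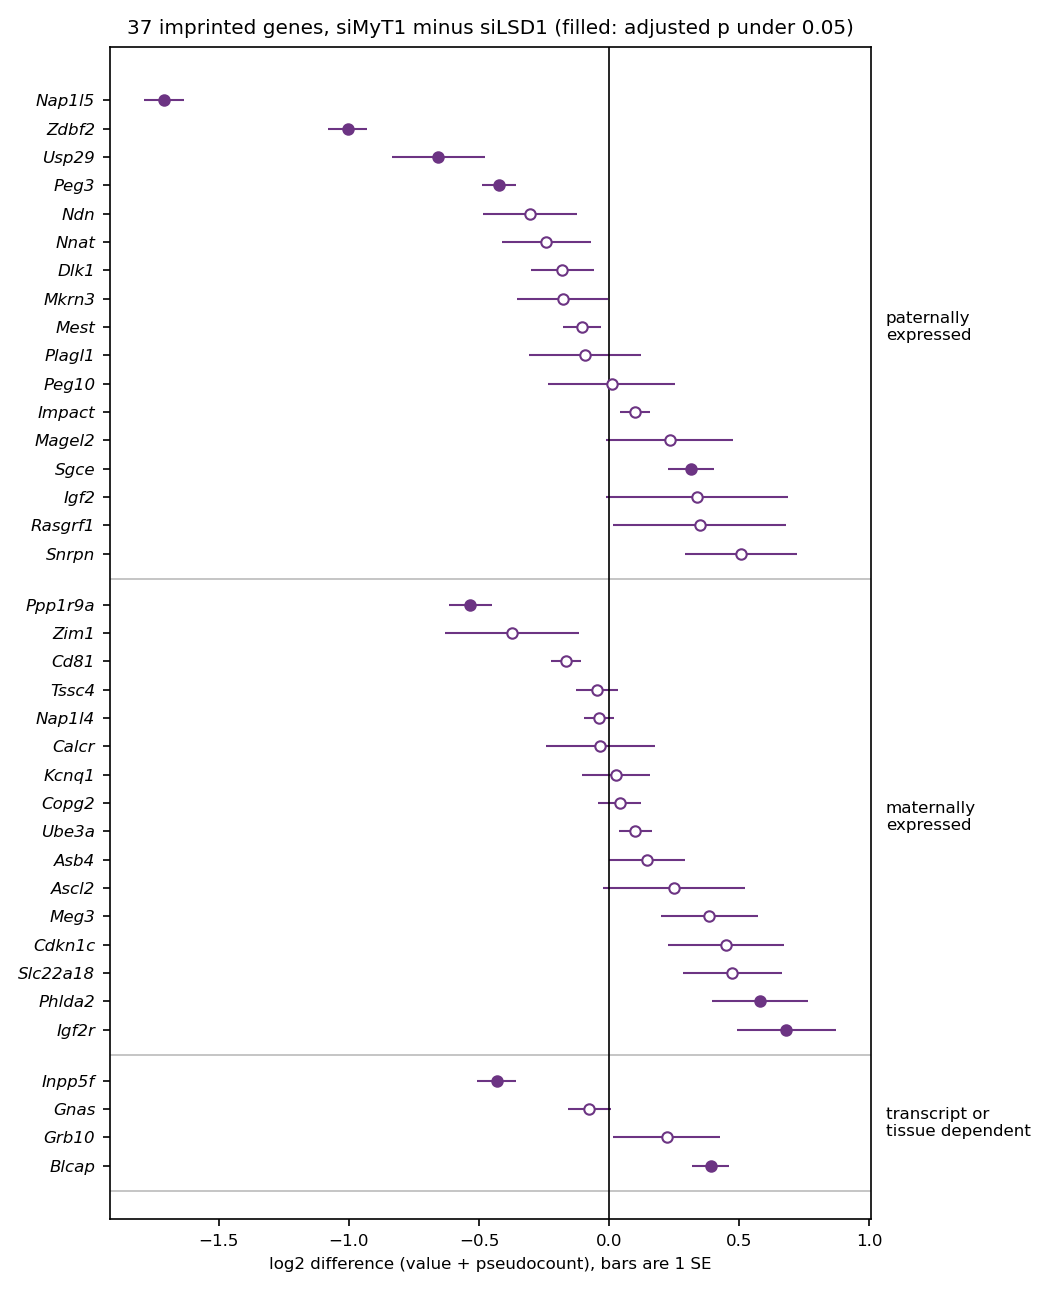
Each row is 1 of the 37 imprinted genes with its log2 difference of siMyT1 minus siLSD1 and a bar of 1 SE, filled where the adjusted p was under 0.05. The filled points left of 0 run from Nap1l5 at -1.71 to Peg3 at -0.42, and those right of 0 from Sgce at 0.31 to Igf2r at 0.68.

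The other 25 measured genes passed in no comparison. Among bright ones, the translation regulator Impact had 29.2 ± 1.2, 29.8 ± 1.2 and 27.8 ± 0.93 units in siControl, siMyT1 and siLSD1. Ube3a, the ubiquitin ligase gene of Angelman syndrome, had 15.8 ± 0.55, 16.3 ± 0.85 and 15.1 ± 0.70. Gnas, which encodes the stimulatory G protein alpha subunit, had 89.7 ± 3.0, 88.7 ± 8.4 and 93.4 ± 7.5. In these genes the arrays of each knockdown overlapped those of siControl. Dlk1, a Notch-like membrane ligand, had 2.87 ± 0.43, 3.13 ± 0.36 and 3.57 ± 0.29 units (0.12, adjusted p = 0.650; 0.30, adjusted p = 0.159), and Meg3, the noncoding RNA of the opposite allele of that cluster, had 0.584 ± 0.076, 0.737 ± 0.18 and 0.510 ± 0.033.

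Further differences did not pass the test. Slc22a18, a transporter of the Kcnq1 cluster, had 0.279 ± 0.092 units in siControl and 0.538 ± 0.067 in siMyT1, without overlap (0.64, SE 0.19, adjusted p = 0.0613). Its other probe set, above the pseudocount on 4 arrays, had the opposite sign, at 0.347 ± 0.19 and 0.205 ± 0.026 (-0.38, adjusted p = 0.455). Cd81, a tetraspanin of the same cluster, had 19 ± 0.44 in siControl and 21.7 ± 0.92 in siLSD1 (0.19, SE 0.06, adjusted p = 0.0570). Plagl1, a zinc finger gene, had 0.275 ± 0.064, 0.116 ± 0.079 and 0.132 ± 0.055 units, with both knockdowns below every control array (-0.62, adjusted p = 0.109; -0.53, adjusted p = 0.171). Mkrn3, a ring finger gene, had 2.27 ± 0.51, 1.59 ± 0.20 and 1.84 ± 0.38 units (-0.45, adjusted p = 0.155, in siMyT1). A p that misses the threshold does not show equal levels. In all, 14 genes were not above the pseudocount on every array: the paternally expressed Igf2, Peg10, Plagl1, Ndn, Magel2, Snrpn and Rasgrf1, the maternally expressed Cdkn1c, Kcnq1, Ascl2, Zim1, Asb4 and Calcr, and Grb10, and their differences rest on values near the pseudocount. Snrpn is also covered by 6 probe sets that carry several symbols, which were not used here.

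Beyond the 37 representing probe sets, 53 further ones named 19 of the genes, of which 13 were above the pseudocount on all arrays. Among the 53, 1 was called in siMyT1 against siControl, 1 in siLSD1 against siControl and 4 in the direct comparison. Of all 34945 single-symbol probe sets tested on their own, 4.36%, 6.42% and 14.3% were called in these comparisons.

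**Figure D4:**
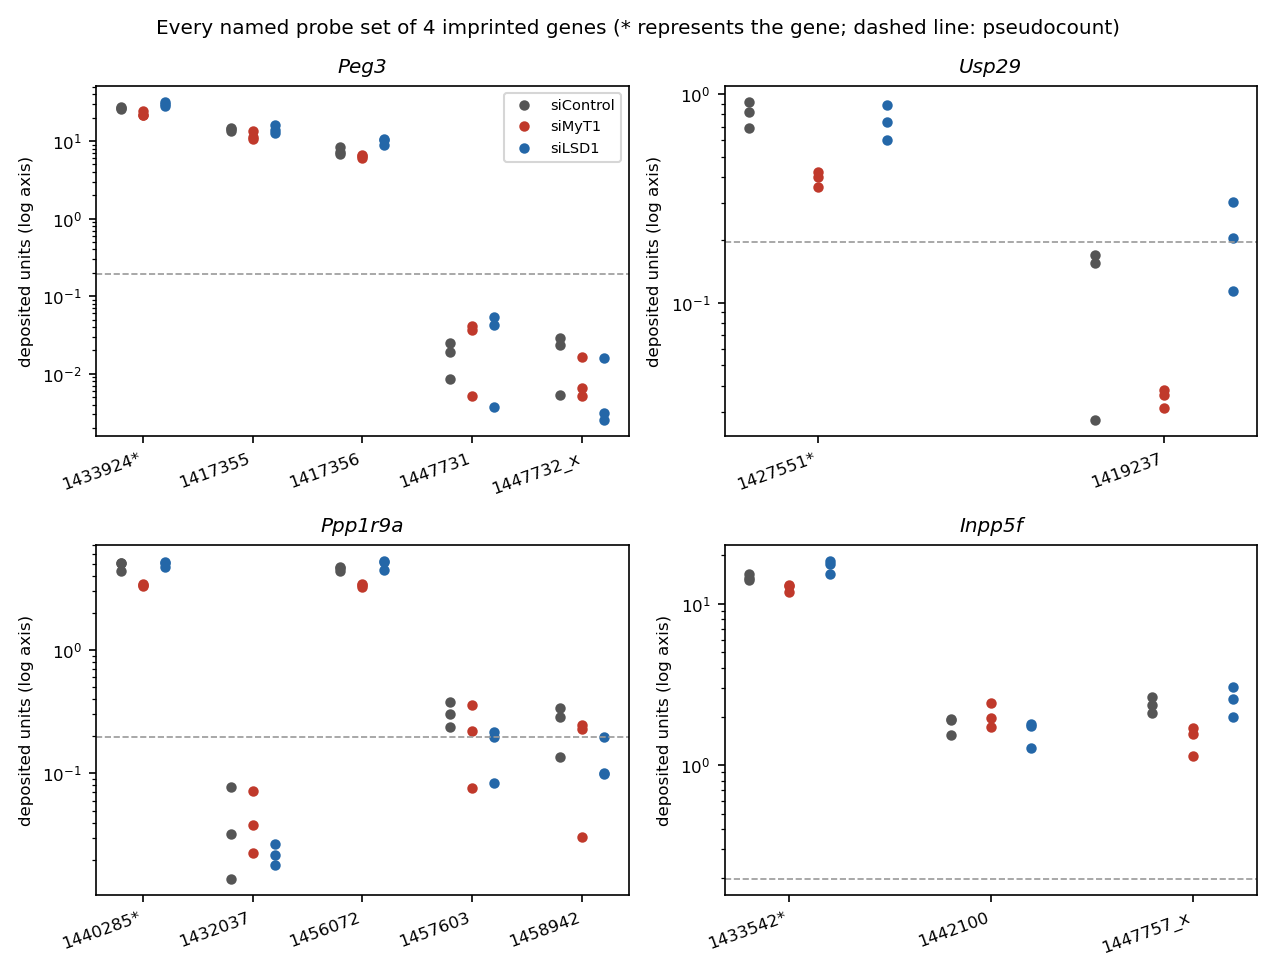
Deposited intensity on a log axis for every probe set that names only Peg3, Usp29, Ppp1r9a or Inpp5f, with the 3 arrays of each group as points; the dashed line is the pseudocount of 0.196 units. Both bright Ppp1r9a probe sets are lowest in siMyT1, at means of 3.36 and 3.33 units.

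Genes outside the member list that flank the 8 members called against control were chosen after values were seen. They were the overlapping or nearest measured such gene on each side by RefSeq order, and numbered 17. Listed members beside a called one, such as Copg2, Nnat and the pair of Peg3 and Usp29, were left out here and are given above. In siMyT1 against siControl limma called 0 of the 17, where 7.41% of all genes were called. At an unadjusted p under 0.05, 5 of the 17 differed, and the share of all genes at that threshold was not determined. In siLSD1 against siControl it called Ctnnbl1, beside Blcap, higher (0.36, adjusted p = 0.0122) and Casd1, beside Ppp1r9a, lower (-0.30, adjusted p = 0.0189), where 8.9% of all genes were called. In the direct comparison it called Abcg2, near Nap1l5, higher (0.66, adjusted p = 0.0418) and Src, near Blcap, lower (-0.47, adjusted p = 0.0164), where 18.8% of all genes were called.

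Of 25 factors that set or keep imprints, 24 were measured. In siMyT1 against siControl 0 were higher and 1 lower by limma, where 2.29% of all genes were lower. The 1 was the de novo DNA methyltransferase Dnmt3a, which fell from 6.91 ± 0.84 to 4.33 ± 0.25 units (-0.64, SE 0.09, adjusted p = 0.00130). In siLSD1 against siControl 0 were higher and 5 lower: the remodeller Hells (-0.52, adjusted p = 0.000395), the insulator protein Ctcf (-0.65, adjusted p = 0.00677), the Polycomb subunits Suz12 (-0.34, adjusted p = 0.00722) and Ezh2 (-0.36, adjusted p = 0.0251), and Atrx (-0.25, adjusted p = 0.0147). Of all genes, 4.93% were lower in that comparison. At an unadjusted p under 0.05, 4 of the 24 differed in siMyT1 and 8 in siLSD1. The share of all genes at that threshold was not determined. In siMyT1 against siLSD1, 4 of the 24 were higher and 2 lower, with 13.2% of all genes higher and 5.58% lower. Zfp57 had 1.44 ± 0.25, 1.56 ± 0.15 and 1.63 ± 0.26 units and passed no test.

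Of 39 other imprinted or neighbouring genes, 32 were measured. Dcn rose in siMyT1 (0.61, adjusted p = 0.0292), and Dhcr7, an enzyme of cholesterol synthesis, fell in siMyT1 (-0.52, adjusted p = 0.00441) and rose in siLSD1 (0.33, adjusted p = 0.0407). Th, which makes the catecholamine precursor and is also a sympathetic marker, rose in siLSD1 from 2.15 ± 0.14 to 3.29 ± 0.15 units (0.58, adjusted p = 0.00262), as did Osbpl5 (0.36, adjusted p = 0.0319), while Casd1 fell. These are 1 higher and 1 lower in siMyT1 and 3 higher and 1 lower in siLSD1, and in the direct comparison 1 was higher and 4 lower. Of 13 IGF and insulin signalling partners, 12 were measured. In siMyT1 the receptor gene Igf1r rose (0.30, adjusted p = 0.0199) and the adaptor gene Irs1 fell (-0.50, adjusted p = 0.00904). In siLSD1 Irs2 rose (0.40, adjusted p = 0.0270) and the IGF-binding protein genes Igfbp5 (-0.62, adjusted p = 0.00119), Igfbp6 (-0.49, adjusted p = 0.00342) and Igfbp2 (-0.37, adjusted p = 0.0304) fell. In the direct comparison 3 of the 12 were higher and 2 lower. The shares of all genes called are those given for the factors above and, for higher calls against siControl, 5.12% in siMyT1 and 3.97% in siLSD1.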

How the data were processed

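Per the labels, total RNA from Neuro2a cells was labelled with biotin for one-colour arrays. The authors deposited intensity values on a linear scale for 45101 probe sets on 9 arrays; how they were summarised and scaled is not given in the sources at hand, so what 1 unit stands for is unknown. The median of an array ranged from 0.302 to 0.424 units, and the number of arrays limits the precision. The platform annotation gave 34945 probe sets 1 symbol and 932 several, and 9211 were unlisted; RefSeq GRCm38.p6 matched 34741 Entrez identifiers and changed 0 symbols. Per gene the probe set with the highest mean was kept.

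Values were multiplied by 1 constant (163.6, which sets the 2% trimmed mean to 500), and log2(value + 32) was fitted with limma 3.58.1 in R 4.3.3 over 3 groups with an intensity trend. Benjamini-Hochberg adjustment ran over 18193 genes. The constant sets the pseudocount at 0.196 deposited units, and no normalization between arrays was added. For 1 gene, an exact permutation test of 3 arrays against 3 cannot go below p = 0.1. The script was tested on simulated data.

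The members and gene lists were chosen with earlier results of these data known. Values are given per array for each member called in any comparison, with uncalled members by counts, by level, or beside a called one of their cluster; up to 4 members are named per further list, or all 5 where 5 passed. Alternatives were quantile normalization, median centring, other pseudocounts, leaving out dim probe sets, averaging probe sets or dropping the _s_at, _x_at and _a_at ones, testing each alone, no intensity trend, 2-group fits, a replicate block and leaving out each array.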

Additional observations from a re-analysis of the deposited data

How the results depend on the processing

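Of 21 calls on single imprinted genes, recomputed 416 times over 20 alternatives, 341 kept their side of the threshold, 75 lost it and 0 changed sign. The counts of imprinted genes moved as follows. In siMyT1 against siControl, 1 higher became 2 under quantile normalization, with the larger pseudocount and with the filter on dim probe sets, and 0 under median centring and with the replicate block. There, 7 lower became 10 under quantile normalization and under median centring, 8 with the filter on dim probe sets, 6 with the larger pseudocount and the 2-group fit, 5 without the _s_at, _x_at and _a_at probe sets and with each probe set tested on its own, 4 without the intensity trend and with the replicate block, and 3 with the mean of all probe sets. In siLSD1 against siControl, 2 higher became 5 under quantile normalization, 4 under median centring and 3 with the filter on dim probe sets, and 1 lower became 3 under quantile normalization and 0 without those _s_at, _x_at and _a_at probe sets, since Blcap has no other. In siMyT1 against siLSD1, 4 higher became 2 under median centring and with the replicate block, 1 without those probe sets and 3 in 5 further settings, and 6 lower became 11 under median centring, 8 under quantile normalization and 3 with the mean of all probe sets. Tssc4 likewise has only an _a_at probe set, so without those probe sets neither Tssc4 nor Blcap was tested in any comparison. The cause of the other changes was not tested. Leaving out 1 array gave 0 to 2 higher and 3 to 7 lower in siMyT1 against siControl, 2 to 3 higher and 1 lower in siLSD1 against siControl, and 1 to 5 higher and 5 to 6 lower in siMyT1 against siLSD1. Tssc4 lost its call with the larger pseudocount (adjusted p = 0.0528), the mean of all probe sets (0.0564), the 2-group fit (0.0601), no intensity trend (0.119), the replicate block (0.0995) and each probe set tested on its own (0.0709), an alternative chosen after seeing the data. The mean of all probe sets also ended the calls of Peg3 (-0.15), Usp29 (adjusted p = 0.0665) and Ppp1r9a (-0.31) against siControl, and in the direct comparison those of Peg3 (adjusted p = 0.0567), Sgce (0.305), Ppp1r9a (0.587) and Inpp5f (0.0684). Without the intensity trend the calls of Peg3, Mest and Blcap in siMyT1 against siControl were lost (adjusted p = 0.135, 0.0810 and 0.0964), as was that of Sgce in siMyT1 against siLSD1 (0.0871). The replicate block ended the same calls (0.0867, 0.0581, 0.0529 and 0.0502) and that of Phlda2 in siMyT1 against siLSD1 (0.0672). Phlda2 was also lost with the smaller pseudocount (0.0637) and the 2-group fit (0.0707).

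Over all genes, 69.1% of the calls were higher in siMyT1 against siControl, but 55.6% under quantile normalization and 34.3% under median centring; the values were 44.6%, 50.8% and 61.3% in siLSD1 against siControl and 70.3%, 55.6% and 32.3% in siMyT1 against siLSD1. Same-numbered arrays did not deviate together (correlations from -0.03 to 0.04). These few correlations show no pairing by number but cannot exclude one, and the labels state none. For 14 dim genes the signal over background limits the comparison.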
